A study of Mus musculus with 2 samples.

Results

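*Zscan4c*, *Zscan4d*, *Zscan4f*, *Tcstv1* and *Tcstv3* are genes of the two-cell-like state, and their RNA was looked up by gene symbol in RNA-seq of ES cells and of E10.5 forebrain. Of these 5 genes, 3 have a value in the tables, which list 29311 genes for both samples. The ES cells were wild-type cells of the E14 line and the forebrain cells came from wild-type B6CBAF1/J embryos at E10.5, in mid-gestation. There was 1 sample of each and there were no replicates, so that cell type, strain and culture cannot be told apart, and no difference between the samples was tested. RNA was extracted in bulk, with Trizol for ES cells and Trizol LS for forebrain, depleted of rRNAs and sequenced from strand-specific libraries.

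The two-cell-like state is a transient condition that a small minority of cells in an ES cell culture enters and leaves again. In it, genes are transcribed that the embryo uses when its own genome is first activated. *Zscan4* genes encode proteins with a SCAN domain and zinc fingers that are known for their part in telomere maintenance, and they form a tandem cluster of near-identical copies. *Tcstv1* and *Tcstv3* encode small proteins of the same stage. In bulk RNA, fewer cells in such a state and less RNA per cell cannot be told apart.

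The *Zscan4* copies differ so little that the same read can belong to several of them. The NCBIM37 annotation places 6 *Zscan4* genes over 618 kb of chromosome 7 (11486098 to 12104460). Their coding sequences are 1515 or 1518 bases long and 96.6 to 99.7% identical in pairwise alignments. *Zscan4c* and *Zscan4f* differ at 6 of 1518 aligned bases, whereas *Zscan4d* differs from each of them at 35. The first 50 coding bases of *Zscan4c* are shown here because all 6 copies share them without a mismatch. This stretch occurs at 9 places of the genome.

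Zscan4c, chr7:11591905-11591954, + strand: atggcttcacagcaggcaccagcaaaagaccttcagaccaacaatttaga

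The stretch of 50 coding bases with the most mismatches to *Zscan4c*, summed over the other copies, is shown next, 5′ to 3′ on the coding strand. Differences among the other copies did not enter this choice. Capitals mark, for *Zscan4c*, each base at which another copy differs, and for the other copies each base that differs from *Zscan4c*.

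Zscan4c, chr7:11595095-11595144, + strand: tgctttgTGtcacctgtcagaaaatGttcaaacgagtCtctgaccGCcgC
Zscan4d, chr7:11747471-11747520, - strand: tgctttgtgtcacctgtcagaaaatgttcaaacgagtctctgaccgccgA
Zscan4f, chr7:11987288-11987337, + strand: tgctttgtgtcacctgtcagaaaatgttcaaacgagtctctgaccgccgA
Zscan4-ps2, chr7:12103658-12103707, + strand: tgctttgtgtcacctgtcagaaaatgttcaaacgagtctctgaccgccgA
Zscan4b, chr7:11486347-11486396, - strand: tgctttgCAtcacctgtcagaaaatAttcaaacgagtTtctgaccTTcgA
Zscan4e, chr7:11891976-11892025, - strand: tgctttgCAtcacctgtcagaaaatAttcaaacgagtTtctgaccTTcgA

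In this stretch *Zscan4d*, *Zscan4f* and *Zscan4-ps2* are the same, each with 1 mismatch to *Zscan4c*, while *Zscan4b* and *Zscan4e* have 7. This stretch of *Zscan4c* occurs at 1 place of the genome, and that of *Zscan4d* at 4 places.

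The copies also resemble each other upstream of their starts. RefSeq promoters (GRCm38.p6) were found for *Zscan4b*, *Zscan4c*, *Zscan4d* and *Zscan4f*, and over the 250 bases before the start they are 94.7 to 99.6% identical in aligned positions. The last 100 bases before each RefSeq start are shown since they carry TATAAA, the TATA box motif, in capitals.

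Zscan4c, chr7:11005645-11005744, + strand: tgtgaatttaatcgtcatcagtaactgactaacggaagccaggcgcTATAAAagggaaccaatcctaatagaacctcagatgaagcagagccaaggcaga
Zscan4d, chr7:11166149-11166248, - strand: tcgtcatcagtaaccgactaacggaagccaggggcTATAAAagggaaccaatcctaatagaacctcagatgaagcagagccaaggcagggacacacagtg
Zscan4f, chr7:11397815-11397914, + strand: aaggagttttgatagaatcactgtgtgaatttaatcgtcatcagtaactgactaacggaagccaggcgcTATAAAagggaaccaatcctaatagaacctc
Zscan4b, chr7:10905051-10905150, - strand: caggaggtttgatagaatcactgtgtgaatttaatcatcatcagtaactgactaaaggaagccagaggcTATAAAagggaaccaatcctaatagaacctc

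TATAAA was found on the coding strand in all 4 of these windows, and its reverse complement in none. Of 32851 promoters in the RefSeq table, 3.8% hold TATAAA on the coding strand of the same 100 bases and 5.56% on either strand. The 4 *Zscan4* windows are near-identical copies and not 4 separate cases beside these shares. The motif begins 31 bases before the RefSeq start of *Zscan4b* and *Zscan4f*, 54 bases before that of *Zscan4c* and 65 bases before that of *Zscan4d*, so the annotated starts of the copies are not at the same base. *Zscan4b* carries the motif as well, and it is listed in neither sample. A relation of the motif to the RNA level was not tested.

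All 3 *Zscan4* genes with a value were found in ES cells at a very low level and were listed at 0 in E10.5 forebrain. *Zscan4c* (ENSMUSG00000054272, chromosome 7, 11591071 to 11595896, + strand, 4 exons) had an RPKM of 2.76 in ES cells and 0 in forebrain. *Zscan4d* (ENSMUSG00000090714, 11746992 to 11751497, - strand, 4 exons) had 2.36 and 0. *Zscan4f* (ENSMUSG00000070828, 11983264 to 11988090, + strand, 4 exons) had 2.06 and 0. The order in ES cells was therefore *Zscan4c*, *Zscan4d* and *Zscan4f*, with 1.34-fold between the highest and the lowest and a mean of 2.39 ± 0.35 (SD across the 3 genes).

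These values rest on few reads. The RPKM of a short gene multiplied by its exonic length falls mostly on whole multiples of 1 step, which was taken as the contribution of 1 read and gave 42780127 reads on genes for ES cells and 59789710 for forebrain. From this step, *Zscan4c* had 5.2 reads in ES cells (exact Poisson 95% interval of the RPKM 0.86 to 6.19). *Zscan4d* had 3.85 reads (0.67 to 6.28) and *Zscan4f* had 4.1 reads (0.55 to 5.15). The intervals were computed on inferred reads rounded to whole numbers and cover counting error only. They overlap almost entirely, so the order of the 3 genes is not established. They also treat the reads of each gene as its own, although the copies can share reads, and differences between the copies were not tested. Together the 3 genes had 13.2 reads, which is 0.307 in every 1000000 reads on genes.

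The deposited RPKM is not scaled to the depth found here. A depth-scaled value was therefore formed as inferred reads per 1000000 reads on genes and per kb, and the deposited RPKM is 52.2 times this value in ES cells and 49.0 times in forebrain. The depth-scaled levels in ES cells were 0.053 for *Zscan4c*, 0.045 for *Zscan4d* and 0.039 for *Zscan4f*. In the units of the tables, the median of all listed genes in ES cells was 48.94, or 17.7 times the value of *Zscan4c*. The 3 genes lay at percentiles 20.7 to 22.9 of the listed genes, and 22599 genes had a higher value than *Zscan4c*.

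**Figure D1:**
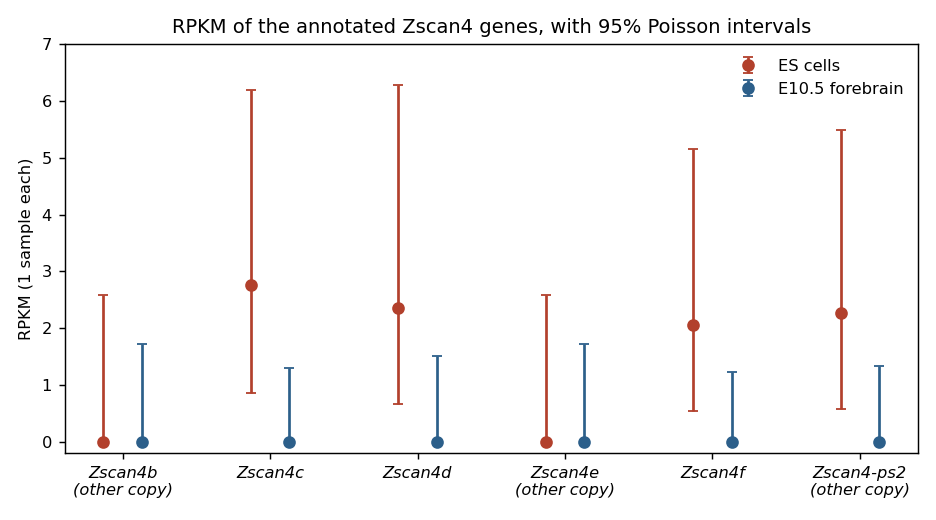
RPKM of the 6 annotated *Zscan4* genes (y axis) in ES cells (red) and E10.5 forebrain (blue), 1 sample each, with exact Poisson 95% intervals on the inferred reads as bars. *Zscan4c*, *Zscan4d*, *Zscan4f* and *Zscan4-ps2* sit between 2.06 and 2.76 in ES cells and at 0 in E10.5 forebrain, and *Zscan4b* and *Zscan4e*, which are not listed, are drawn at 0 in both samples.

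The forebrain library was the deeper one, with 1.4 times the reads on genes, and held no counted read of these genes. The limit that a count of 0 allows, 3 reads per gene, corresponds to an RPKM of 1.07 for *Zscan4c*, 1.23 for *Zscan4d* and 1.01 for *Zscan4f* in E10.5 forebrain. The low ends of the intervals in ES cells (0.86, 0.67 and 0.55) lie below these limits. Setting these bounds side by side is not a test, and no difference was tested for a single copy. For the sum of the 3 genes, 7.18 in ES cells, the limit was taken as 3 reads over the group, an RPKM of 1.1 at their mean exonic length, and the sum in ES cells was 6.55 times this limit. At the low end of the counting interval of ES cells (6.9 reads, from 13 whole reads) the sum was 3.49 times this limit. This ratio covers counting error only, takes the reads as separate although they may be shared, and is not a test. At the same RPKM in both samples, the 3 genes would have had 19.6 reads in E10.5 forebrain. Lower levels in forebrain were not detectable at this depth.

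On log2(RPKM + 1), where differences between values as low as these come out too small, ES cells exceeded E10.5 forebrain by 1.91 for *Zscan4c*, 1.75 for *Zscan4d* and 1.61 for *Zscan4f*. None of the 3 genes reached a 4-fold difference on this scale, a size that 11.3% of all listed genes reached with ES cells higher and 14.4% with E10.5 forebrain higher. All 3 reached a 2-fold difference, as did 23.3% of all listed genes in this direction. All 3 also had at least 3 reads in ES cells while listed at 0 in E10.5 forebrain, which held for 2.59% of the listed genes. The reverse pattern, at least 3 reads in forebrain and 0 in ES cells, was found for 3.81%. Both shares are over genes of all levels, and none was computed among genes with as few reads. The 3 genes can also share reads, so they are not 3 separate cases. With a pseudocount of 0.1 in place of 1, the 3 genes passed the 4-fold limit, with 16.4% of all genes.

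Many other genes share the level and the pattern of *Zscan4c*. Of 19619 other protein-coding genes, 792 lay within a distance of 1 from it over both samples on log2(RPKM + 1). The nearest were *1700021A07Rik*, with an RPKM of 2.76 and 0 from 1 read in ES cells, *Cd3d*, a subunit of the T cell receptor complex, with 2.77 and 0 from 3 reads, and *Mup3*, a major urinary protein, with 2.77 and 0 from 2.2 reads.

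A further copy of the cluster had a value of the same size. *Zscan4-ps2* (12099659 to 12104460), which the annotation calls protein-coding and RefSeq a pseudogene, had an RPKM of 2.27 from 4.23 reads in ES cells and 0 in forebrain. The 4 listed copies therefore had 17.4 reads in ES cells (17 whole reads, exact Poisson 95% interval 9.9 to 27.2) and 0 in E10.5 forebrain. *Zscan4b* and *Zscan4e* are annotated but not listed, and were taken as 0 in both samples, since the tables list no gene that is at 0 in both. An interval from 0 reads reaches an RPKM of 2.58 in ES cells for both. This lies above the values of *Zscan4d*, *Zscan4f* and *Zscan4-ps2*, and differences between these copies were not tested. Of the 7 other annotated genes within 250 kb of a listed member, *Zscan4-ps2* was the only one listed. The remaining 6 are *Zscan4b*, *Zscan4e*, *Gm10991* and the small RNA genes *Mir297-1*, *AC151974.1* and *AC155315.1*.

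How far a value belongs to its own gene was examined through windows of read length. Every window of 50 bases within the exons was searched in the whole NCBIM37 genome on both strands. Windows of 100 bases were used as a second length, because the sources name both read lengths. For *Zscan4f*, 2.3% of the windows occurred at a single place. This share was 15.5% for *Zscan4c* and 50.5% for *Zscan4d*, the member with most sequence of its own. At a length of 100 bases the shares were 6.4% for *Zscan4f*, 29.6% for *Zscan4c* and 72.5% for *Zscan4d*, in the same order. No window was found on another chromosome or on an unplaced contig.

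**Figure D2:**
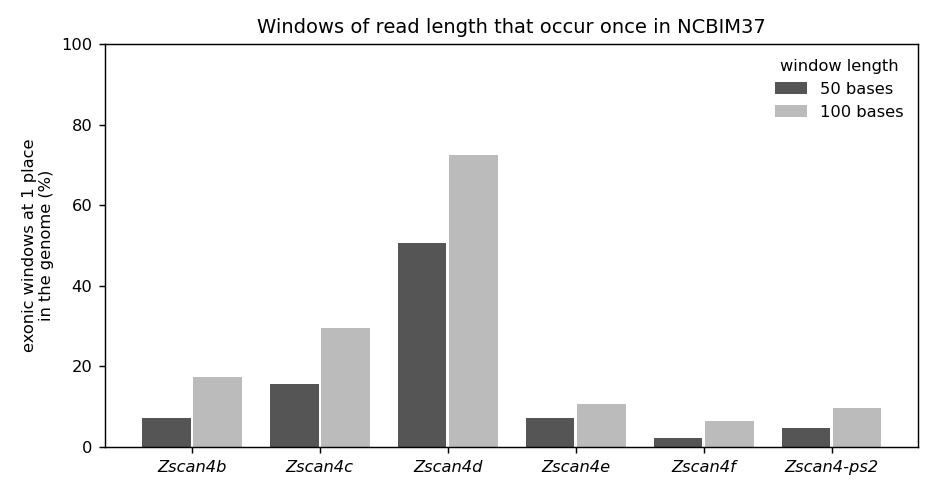
Share of exonic windows of 50 bases (dark) and 100 bases (light) that occur at 1 place of the NCBIM37 genome (y axis, %), for the 6 annotated *Zscan4* genes. *Zscan4d* stands at 50.5% and 72.5%, and *Zscan4f* at 2.3% and 6.4%.

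*Zscan4f* shared most of its windows with *Zscan4-ps2*. Of the 50-base windows of *Zscan4f*, 86.1% also occurred in *Zscan4-ps2* and 70.6% in *Zscan4c*. With *Zscan4d* it shared 32.9%, and with *Zscan4b* and *Zscan4e* 27.0% and 28.5%. Transcripts of *Zscan4c*, *Zscan4d* and *Zscan4f* matched no protein-coding transcript outside the *Zscan4* genes at 80% identity over 50% of their length, while those of the other copies matched at 94.7 to 99.8%. RefSeq names 9 *Zscan4* genes and pseudogenes on a later build, and 3 of them, *Zscan4a*, *Zscan4-ps1* and *Zscan4-ps3*, are not in the NCBIM37 annotation. Of the 50-base windows of *Zscan4c*, 72.6% also occurred outside all annotated *Zscan4* exons, as did 46.3% for *Zscan4d* and 77.9% for *Zscan4f*.

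The tables also hold fractions of reads. Among genes with at most 2500 bp of exon and an RPKM of at least 0.3, 888 lay more than 0.05 below 1 read in ES cells. Of these 888, 61.7% lay within 0.02 of 1/2, 1/3, 1/4 or 1/5 of a read. In E10.5 forebrain 64.4% of 699 such genes did so. Among the 888 in ES cells, 217 genes lay at 1/2 and 144 at 1/3 of a read. Apart from genes at 0, no listed gene of any length in either sample held less than 0.18 reads. Of all listed genes, 166 in ES cells lay within 0.02 of 0.2. The reads of *Zscan4c* (5.2), *Zscan4d* (3.85) and *Zscan4f* (4.1) are likewise not all whole. Thus no fraction well below 1/5 of a read, as a read split over more than 5 places would leave, was seen. Windows at more than 5 places make up 43.4% of the 50-base windows of *Zscan4c*, 33.9% of those of *Zscan4d* and 43.2% of those of *Zscan4f*, up to 10 places for a window. At 100 bases the shares were 21.3%, 13.5% and 21.5%. Whether reads from such windows were counted is not given in the sources used here, and their part in the low values was not tested.

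**Figure D3:**
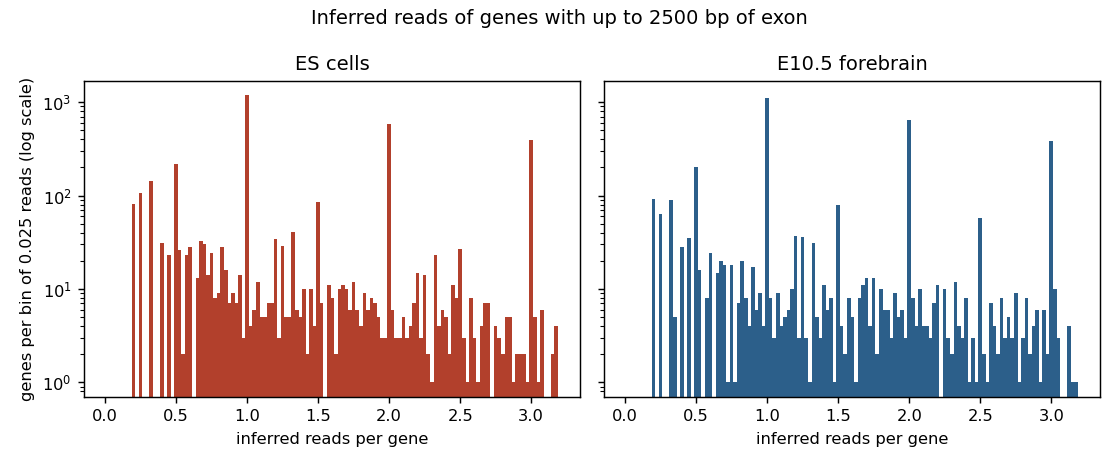
Number of genes (y axis, log scale) by inferred reads (x axis, bins of 0.025 reads) for genes with up to 2500 bp of exon and an RPKM of at least 0.3, in ES cells (left) and E10.5 forebrain (right). Peaks stand at whole reads, with smaller ones at 1/2, 1/3, 1/4 and 1/5 of a read and no gene to the left of the last.

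*Tcstv1* and *Tcstv3* have no value in either sample, and this cannot be read as an absence of RNA. Neither symbol is in the tables or in the NCBIM37 annotation of 37310 genes. RefSeq places both on chromosome 13, beyond *Tmem267* on a later build. In NCBIM37 the same gene, there called *Gm7120* (chromosome 13, 120281511 to 120284277), is the last of the chromosome and ends 35 bases before the end of its sequence. The part of chromosome 13 that carries *Tcstv1* and *Tcstv3* therefore does not follow *Gm7120* in the chromosome to which the reads were mapped. Both genes were left out of all sums.

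Other genes known from the two-cell-like state were then examined by a list of 40 symbols, of which 28 were annotated and 26 listed. Of these, 6 were at least 4-fold higher in ES cells on log2(RPKM + 1), 0 in E10.5 forebrain and 20 neither, where 11.3% and 14.4% of all listed genes passed the limit in these directions. The median difference was 1.03, compared with -0.01 over all genes. The list depends on the scale, with 4 genes past the limit when values were scaled to equal sums, and 0 genes on the depth-scaled values, where a pseudocount of 1 outweighs most values. The members of the list were chosen with results of these samples known.

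*Pramel6* and *Pramel7*, a pair of PRAME-like genes, had the largest differences of the list. *Pramel6* had an RPKM of 49.65 in ES cells from 84.7 reads and 0.47 in forebrain from 1.2 reads. *Pramel7*, which is known to promote ground-state pluripotency, had 14.35 from 25.1 reads and was listed at 0 in forebrain. *Gm12794* had 6.68 and 0, and *Zfp750*, a zinc finger gene best known from epidermis, had 46.46 and 10.64. At least 3 reads in ES cells and 0 in forebrain were found for *Pramel7*, *Gm12794* and *Dub1a*, as for the *Zscan4* genes.

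The multicopy deubiquitinase genes had low values as well. *Dub1a* had an RPKM of 4.33 in ES cells from 5.5 reads and 0 in forebrain, *Dub1* had 2.75 and 0.1, and *Dub2a* had 1.52 and 0.14. The last pair held 0.3 reads each in forebrain, less than 1 read.

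The *Tdpoz* genes, which encode proteins with TRAF and POZ domains, did not move as a group. In ES cells *Tdpoz3* had an RPKM of 3.89, *Tdpoz4* 2.93, *Tdpoz2* 1.68 and *Tdpoz1* 0.58, from 0.6 to 3.5 reads. The forebrain values of these 4 genes were 0.15, 0.25, 0.19 and 0.35, each below 1 read. *Tdpoz5* was listed at 0 in ES cells and had 2.36 in E10.5 forebrain from 2.9 reads.

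*Dux*, the homeobox gene known to switch on the two-cell programme and with it *Zscan4*, was near the limit of detection in both samples. It had an RPKM of 0.78 in ES cells and 0.56 in forebrain, from 1.7 and 1.8 reads. Shared windows were not searched for *Dux*, so whether its reads were counted in full was not tested. *Zfp352*, a zinc finger gene of the two-cell embryo, had 8.74 and 5.63 from 16.7 and 16.0 reads, and *D5Ertd577e* 0.1 and 0. *Gm4981* had 0.49 and 0.27, *Gm13119* 0.89 and 0, and *Gm10696* 0.42 and 0, all from less than 2 reads. These genes were thus close to 0 in both samples, except *Zfp352*, whose values were alike.

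The remaining genes of the list had reads in both samples, most of them at higher levels than *Zscan4*. *Eif1a*, a translation initiation factor, had an RPKM of 5430.03 in ES cells and 1535.45 in forebrain. *Gm5662* had 81.61 and 22.16, *Gm2016* 55.01 and 14.07, and *Gm8300* 26.69 and 14.74. For *Gm4340* (31.06 and 31.2) and *Gm6763* (29.32 and 28.82) the samples were nearly equal. Shared windows were searched for the *Zscan4* genes only, so how far the values of these *Gm* genes are their own was not examined. *Arg2*, a mitochondrial arginase, was lower in ES cells, with 42.75 and 63.1, and *Sp110*, a nuclear body protein, had 4.34 and 3.11. *BC061212* and *Gm428* are annotated but not listed.

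**Figure D4:**
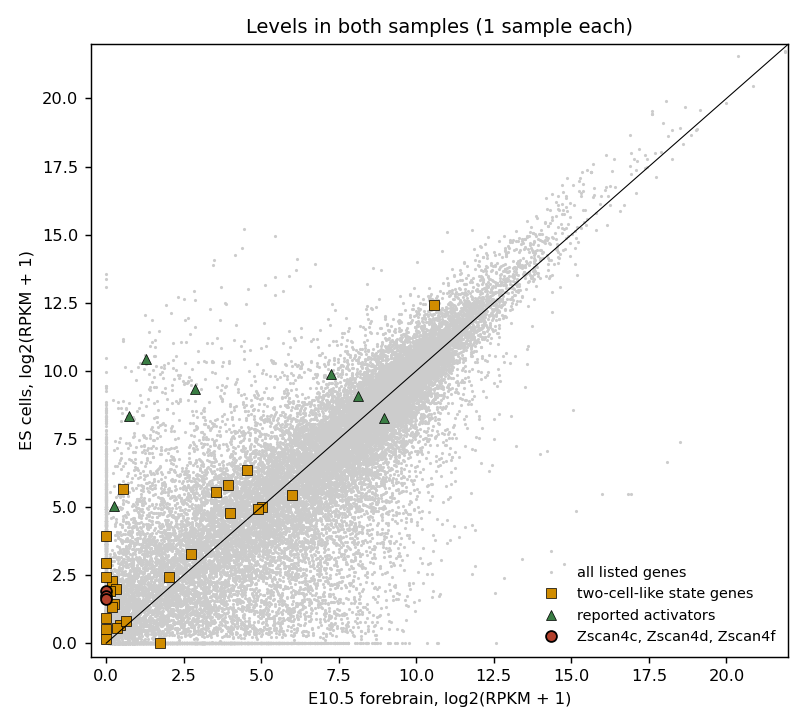
Levels in E10.5 forebrain (x axis) and ES cells (y axis) on log2(RPKM + 1), 1 sample each, for all listed genes (grey), the two-cell-like state genes (orange squares), reported activators (green triangles) and *Zscan4c*, *Zscan4d* and *Zscan4f* (red circles), with the line of equal values. The *Zscan4* genes lie at 0 on the x axis and between 1.61 and 1.91 on the y axis, in the lower left corner, whereas *Dppa4* and *Dppa2* lie far above the line.

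Most factors reported to act upstream of *Zscan4* had a much higher RPKM in ES cells than *Zscan4* itself, other than *Dux*. Of 7 listed activators, 5 were at least 4-fold higher in ES cells and 0 were so in forebrain, beside 11.3% and 14.4% of all listed genes. The median difference was 4.79, compared with -0.01 over all genes. *Dppa4* and *Dppa2*, which act on *Dux*, had an RPKM of 1369.06 and 326.12 in ES cells, and of 1.42 and 0.68 in E10.5 forebrain. *Dppa3*, a maternal factor that protects methylation, had 31.59 and 0.18, which in ES cells is below the median of all genes. The nuclear receptor gene *Nr5a2* had 640.83 and 6.26, and *Tbx3*, a T-box factor of naive pluripotency, had 954.62 and 150.84. *Trp53*, which encodes p53, differed less, with 540.56 and 279.75. *Whsc2*, which encodes a subunit of the negative elongation factor, was lower in ES cells, with 304.54 and 498.32. On the depth-scaled values, 4 activators in place of 5 passed the limit, beside 2.37% of all listed genes.

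**Figure D5:**
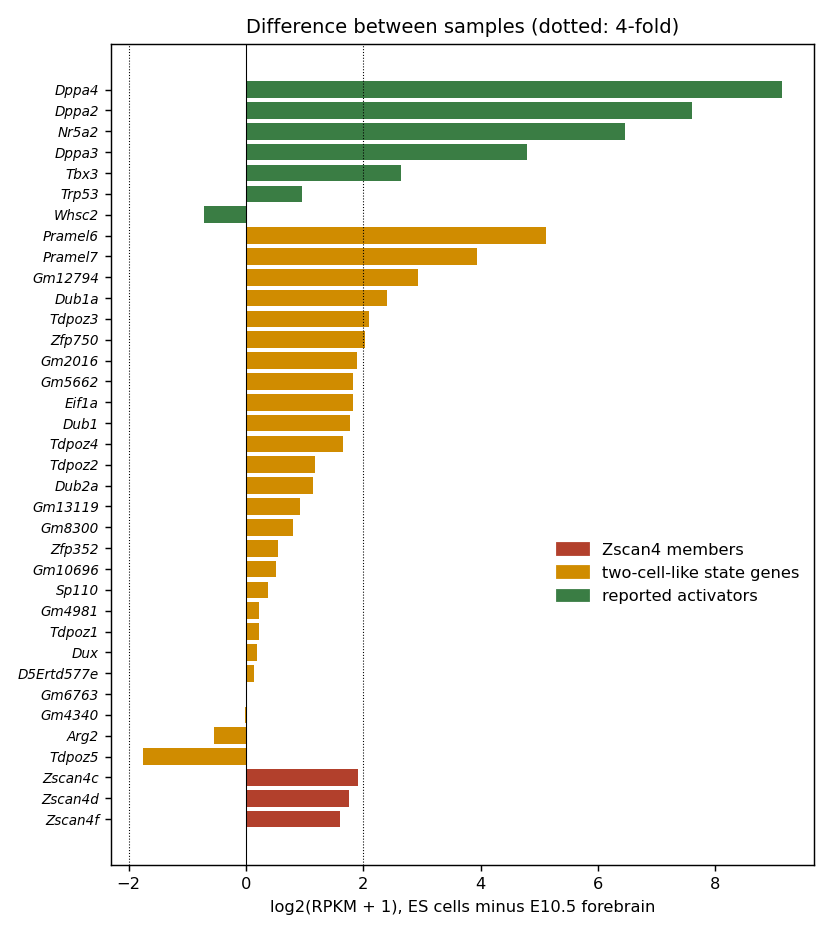
Difference between ES cells and E10.5 forebrain on log2(RPKM + 1) (x axis) for the *Zscan4* members (red), the listed two-cell-like state genes (orange) and reported activators (green), with dotted lines at a 4-fold difference. The *Zscan4* members stay between 1.61 and 1.91, *Pramel6* reaches 5.11 and *Dppa4* 9.15, and *Tdpoz5* is lowest at -1.75.

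Reported repressors of the two-cell-like state were expressed in both samples. All 23 listed repressors had an RPKM of at least 64.75 in ES cells and 58.93 in forebrain, with a median difference of 0.37. A 4-fold higher value in ES cells was found for 3 of them and in E10.5 forebrain for 0, beside 11.3% and 14.4% of all listed genes, and the scalings tried gave 2 to 4 genes in ES cells. Under these scalings 2.37 to 11.9% of all listed genes passed with ES cells higher. *Zfp42*, known as Rex1, had 11505.32 and 58.93, and *Lin28a*, an RNA-binding protein, had 3854.5 and 345.49. The smallest values of the difference were those of the Polycomb gene *Ring1*, with 64.75 and 208.37, and of *E2f6*, with 293.53 and 787.05. *Trim28*, the corepressor that silences endogenous retroviruses, had 26608.96 and 12853.37.

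Of 18 listed telomere genes, 1 was at least 4-fold higher in ES cells and 0 were so in forebrain, beside the same 11.3% and 14.4% of all listed genes, and the median difference was 0.21. The gene past the limit was *Terf1*, a shelterin subunit, with an RPKM of 3673.54 and 684.29. *Dmc1*, a recombinase of meiosis, followed with 74.68 and 20.23. *Spo11*, which makes the double-strand breaks of meiosis, had 0.31 from 1 read in ES cells and 3.13 from 15.0 reads in forebrain, and the shelterin gene *Pot1b* had 112.35 and 269.79. The median of the telomere genes turned to -0.06 with values scaled to equal sums, which moved the median of all genes to -0.26. The call for *Terf1* was made under all scalings tried.

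Defining markers of ES cells and of forebrain were found in the samples so labelled. Of 8 ES cell markers, 7 were at least 4-fold higher in ES cells, beside 11.3% of all listed genes. They were led by *Tdgf1* (6431.61 and 4.72) and *Dppa5a* (2734.69 and 1.59). The exception was *Sox2*, which neural progenitors also use, with 7181.95 and 2602.06. All 8 forebrain markers were at least 4-fold higher in E10.5 forebrain, beside 14.4% of all listed genes. Dividing by the upper quartile left 7 of these 8 past the limit, and the depth-scaled values left 5. The share of all listed genes past the limit in this direction was not computed under these scalings. Genes used as markers of other cells had values too, which does not show that those cells were in the samples. Of 6 markers of fibroblast feeders, 5 were at least 4-fold higher in forebrain, where they reached 10811.98 for the collagen gene *Col3a1*, and 1, *Thy1*, in ES cells (50.31 and 1.89). Their values summed to 99.7 for ES cells and 16353.8 for forebrain. Of all listed genes, 14.4% passed the limit with forebrain higher and 11.3% with ES cells higher. For primitive endoderm, whose 5 markers fill 6 entries, the values in ES cells ranged from 0 to 7.25 and those in forebrain from 0.52 to 1795.6, the value of *Pdgfra*. Of these entries, 3 were at least 4-fold higher in forebrain and 0 in ES cells. *Gata4* (3.12 and 0.52) and *Gata6* (1.34 and 5.9) were low in both samples. The part of such cells in the *Zscan4* values was not tested. According to the paper, the ES cell culture was free of feeders, and its medium held serum and LIF. Of 5 listed trophectoderm markers, *Cdx2* was at least 4-fold higher in ES cells (271.6 and 0), beside 11.3% of all listed genes. *Eomes* (90.06 and 233.7) and *Krt8* (108.11 and 128.69) were found in both samples, and *Elf5* (2.08 and 2.79) and *Hand1* (0.61 and 1.23) were low in both.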

How the data were processed

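Per the labels and the methods of the study, the authors aligned reads from single ends to the NCBIM37 build through HTSstation, and the deposited tables give an RPKM for each gene. The submitters' processing notes name Bowtie 0.12.7. The scaling between samples and the treatment of reads with several places are not given in the sources used here.

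All 29311 listed genes matched the GENCODE vM1 annotation of the same build by identifier, start and end. Reads per gene were inferred as RPKM times exonic length over the step of 1 read, 1.2209 (ES cells) or 0.819 (E10.5 forebrain) on the scale of RPKM times kb, found on genes whose exons span at most 2500 bp and whose RPKM is at least 0.3. Of such low genes, 60.3% and 64.5% lay within 0.05 of a whole read. Differences were taken on log2(RPKM + 1). With 1 sample per group no test was made and no p-value is given. Poisson intervals are exact, at 95%, on inferred reads rounded to whole numbers, and cover counting error only. Coding sequences were aligned with Biopython 1.88 and transcripts with blastn 2.17.0. The scripts were tested on simulated data.

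The genes examined and all lists were chosen with earlier results of these data known. Named are the 5 members, genes called *Zscan4* or *Tcstv*, genes within 250 kb of a member or similar in sequence, all listed two-cell-like and activator genes, the genes with the 2 largest and 2 smallest differences of the repressor and telomere lists (other markers as examples), and the 3 protein-coding genes nearest to *Zscan4c*. *Trim28*, the trophectoderm markers, *Thy1*, *Col3a1* and *Pdgfra* were added after their values were seen. Alternatives covered scaling, pseudocount, fold, filters, the genes ranked against and window length. Scripts ran on Python 3.11.15 with pandas 2.3.3, numpy 2.4.6 and scipy 1.17.1, and figures were drawn with matplotlib 3.10.9.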

Additional observations from a re-analysis of the deposited data

How the results depend on the processing

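Of 19 alternatives, 12 left the result within its counting interval or at the same count, and 7 moved it. None could turn a direction, since the 3 genes are at 0 in E10.5 forebrain. The sum of *Zscan4c*, *Zscan4d* and *Zscan4f* in ES cells was 5.42 to 6.96 times the limit that 0 reads allow in forebrain under the scalings tried, and 8.65 times with *Zscan4-ps2* added, an alternative chosen after seeing the data. At the low end of the counting interval of ES cells it was 3.49 times the limit for the 3 genes as deposited and 5.04 times with *Zscan4-ps2*. The number of members past the limit of 4-fold was 3 in place of 0 with a pseudocount of 0.1 or with a limit of 2-fold, since their values are near the pseudocount. Their median difference of 1.75 on the log2 scale became 4.62 with a pseudocount of 0.1, 0.56 with 5, and 0.06 on depth-scaled values (inferred reads per 1000000 reads on genes and per kb), where the values themselves are far below 1. The median percentile of the 3 genes rose from 21.6 to 38.4 when unlisted genes were counted at 0. The mean share of their windows at more than 1 place was 77.2% at 50 bases and 63.8% at 100 bases. With at least 10 reads asked for over both samples, 0 members were left, so this alternative gives no value. No value could be given for the *Tcstv* genes under any setting. No paired analysis was possible because there is 1 sample per group and the labels carry no replicate numbers. Depth and shared sequence limit all statements on single copies. Each member rests on 3.85 to 5.2 inferred reads, which may be shared with other copies.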
